A study of Mus musculus with 12 samples.

Results

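The Cyp3a genes encode a subfamily of cytochrome P450 enzymes of the liver and gut. They were taken here by symbol from a table of gene counts of mouse liver, and were Cyp3a11, Cyp3a13, Cyp3a16, Cyp3a25, Cyp3a41a, Cyp3a41b, Cyp3a44 and Cyp3a59, 8 of the 56748 genes listed. All 8 passed the filter on low counts, among 14003 genes tested. Cyp3a41a and Cyp3a41b are near-identical copies and are also given as their sum.

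Cytochrome P450 enzymes of the Cyp3a subfamily sit in the endoplasmic reticulum, take electrons from the reductase encoded by Por, and oxidise drugs, steroids and bile acids. Their transcription in liver is known to be raised through the nuclear receptors PXR (Nr1i2) and CAR (Nr1i3) in response to foreign compounds. Several mouse members are known to be set by sex through the secretion pattern of growth hormone, which acts by way of STAT5b and of sex-dependent repressors such as CUX2 and BCL6.

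Poly(A) RNA of whole liver was sequenced from 129S1/SvImJ mice (wild type) and from mice of the 129/Sv-Cyp2e1tm1Gonz/J line (knockout), which carries a targeted allele of Cyp2e1, the P450 that oxidises ethanol and acetaminophen. Females and males of both lines were co-housed on normal chow to an age of 16 weeks, and each of the 4 groups has 3 libraries, which the design calls biological replicates. All 12 libraries come from 129 lines, and the labels name no treatment. Since genotype and line go together here, a knockout effect below includes any difference between the lines.

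Total counts ran from 15167730 to 25082532 per library. Cyp2e1, read first as a check of the labels, had 6213 to 11480 CPM (counts scaled to the size of the library) in the 6 wild type libraries and 230 to 403 CPM in the 6 knockout libraries, so every library matched its genotype label, and a residual transcript was counted in the knockout. The listed hepatocyte markers summed to 68695 to 111073 CPM in every library, and none of the 7 in the table was at 0.

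The 4 genes that were near 0 in males shared a short stretch just before their starts, and it is shown first for that reason. The runs below are the 250 bases before the start of each gene, 5′ to 3′ on the strand of the gene, from RefSeq's GRCm38.p6 table, which matched all 8 genes by symbol. They are reference sequences and not those of the 129 mice. Capitals mark ATCAAT, the core that HNF6 and CUX2 are known to bind. Cyp3a44 is at chr5:145805875-145806124, Cyp3a16 at chr5:145469724-145469973, Cyp3a41b at chr5:145584731-145584980 and Cyp3a11, a gene transcribed in both sexes, at chr5:145879855-145880104, all on the minus strand.
Cyp3a44: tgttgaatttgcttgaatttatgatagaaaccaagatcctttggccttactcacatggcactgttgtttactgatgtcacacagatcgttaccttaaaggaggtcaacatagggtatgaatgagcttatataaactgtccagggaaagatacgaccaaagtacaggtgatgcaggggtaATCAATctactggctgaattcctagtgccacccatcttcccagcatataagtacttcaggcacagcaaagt
Cyp3a16: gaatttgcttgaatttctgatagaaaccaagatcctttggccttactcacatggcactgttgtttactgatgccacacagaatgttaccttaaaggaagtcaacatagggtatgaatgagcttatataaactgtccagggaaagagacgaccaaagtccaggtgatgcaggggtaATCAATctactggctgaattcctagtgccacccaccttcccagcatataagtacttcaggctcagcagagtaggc
Cyp3a41b: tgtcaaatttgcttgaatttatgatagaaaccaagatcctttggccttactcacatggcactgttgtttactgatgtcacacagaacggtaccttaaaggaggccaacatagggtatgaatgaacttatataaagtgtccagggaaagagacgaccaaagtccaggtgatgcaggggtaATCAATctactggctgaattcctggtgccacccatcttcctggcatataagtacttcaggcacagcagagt
Cyp3a11: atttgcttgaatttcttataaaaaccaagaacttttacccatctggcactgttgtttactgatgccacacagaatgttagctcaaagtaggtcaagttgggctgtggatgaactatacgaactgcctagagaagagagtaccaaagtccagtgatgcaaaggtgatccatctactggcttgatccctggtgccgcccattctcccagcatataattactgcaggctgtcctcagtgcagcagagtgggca

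ATCAAT, searched on both strands, stood once in each of Cyp3a16, Cyp3a41a, Cyp3a41b and Cyp3a44 and in none of the windows of Cyp3a11, Cyp3a13, Cyp3a25 and Cyp3a59. It lay 71 to 66 bases before the start in Cyp3a41a, Cyp3a41b and Cyp3a44 and 75 to 70 bases before it in Cyp3a16, on the strand of the gene each time. Of all 32851 promoters of the same length, 6.72% held it. The motif was chosen after the sequences and the sex pattern had been seen, so the match is a description of these letters only. The window of Cyp3a41a had 249 of 250 bases in common with that of Cyp3a41b, and the pairwise identity among the 4 windows was 91.3% to 99.6%, so they are not independent cases. The Cyp3a11 window was 72.5% to 76.6% identical to them, while Cyp3a25 and Cyp3a59 formed a pair of their own at 94.8%.

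A FOXA site, TGTTTAC on either strand, was in 5 of the 8 windows (Cyp3a11, Cyp3a16, Cyp3a41a, Cyp3a41b and Cyp3a44) and in 3.17% of all promoters. The nuclear receptor half-site AGGTCA was in 4 (Cyp3a11, Cyp3a25, Cyp3a44 and Cyp3a59) and in 14.0% of all promoters. The STAT5 and BCL6 pattern TTCNNNGAA was in none of the 8 and in 7.02% of all promoters. The matches did not overlap one another within a window, and a window without a match says nothing about sites farther away.

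Cyp3a16, Cyp3a41a, Cyp3a41b and Cyp3a44 were abundant in every female liver and near 0 in every male liver. Cyp3a44, a steroid-oxidising P450 known for its female bias, had 764, 1347 and 1112 CPM in wild type females. Its male libraries held 3 counts in all in the wild type and 2 in the knockout, at most 0.168 CPM in any library. No male library came near the lowest female library, which had 280 CPM.

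Cyp3a16, best known as a form of the fetal and newborn liver, had 494, 698 and 479 CPM in wild type females and 340, 198 and 322 CPM in knockout females. Only 1 of the wild type male libraries and 1 of the knockout male libraries held a count of it, a single one each. Cyp3a41b had 393, 582 and 541 CPM in females of the wild type and no count in any of the 6 male libraries. Cyp3a41a reached 296, 412 and 240 CPM there, with 0 counts over the wild type males and 2 over the knockout males. Cyp3a41 is a P450 known to be female-specific in adult mouse liver.

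Against a floor of 3 counts over the 3 male libraries, Cyp3a41b was at least 9105-fold higher in wild type females than in wild type males and at least 3522-fold higher in knockout females than in knockout males. Cyp3a41a was at least 5794-fold higher in wild type females. For genes with 1 to 3 male counts the ratio is given with an exact 95% interval, which covers counting error only. It was 19231 (6580 to 93257) for Cyp3a44 and 30491 (5472 to 1204388) for Cyp3a16 in the wild type. In the knockout it was 9242 (2558 to 76318) for Cyp3a44, 15599 (2799 to 616166) for Cyp3a16 and 4677 (1294 to 38625) for Cyp3a41a. The intervals are wide because the male counts are so few, and they do not order the 4 genes.

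In edgeR's quasi-likelihood test with Benjamini-Hochberg adjustment over all genes tested, 4 of the 8 Cyp3a genes were lower in males than in females of the wild type and none was higher, where 2.39% of all genes tested were lower in males and 2.1% higher. The same count, 4 lower and 0 higher, was found in the knockout, against 2.45% lower and 2.95% higher among all genes. The 4 were those named above in both genotypes, with the near-identical Cyp3a41a and Cyp3a41b counted singly. All 4 entered the test through their female libraries alone, so only a call lower in males was open to them. The count, the adjusted p and the separation of the sexes therefore only describe these genes. Their adjusted p ran from 3.18e-09 (Cyp3a16) to 4.12e-08 (Cyp3a41b) in the wild type and from 7.79e-09 (Cyp3a16) to 7.44e-08 (Cyp3a41b) in the knockout, with all 3 males under all 3 females each time.

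**Figure D1:**
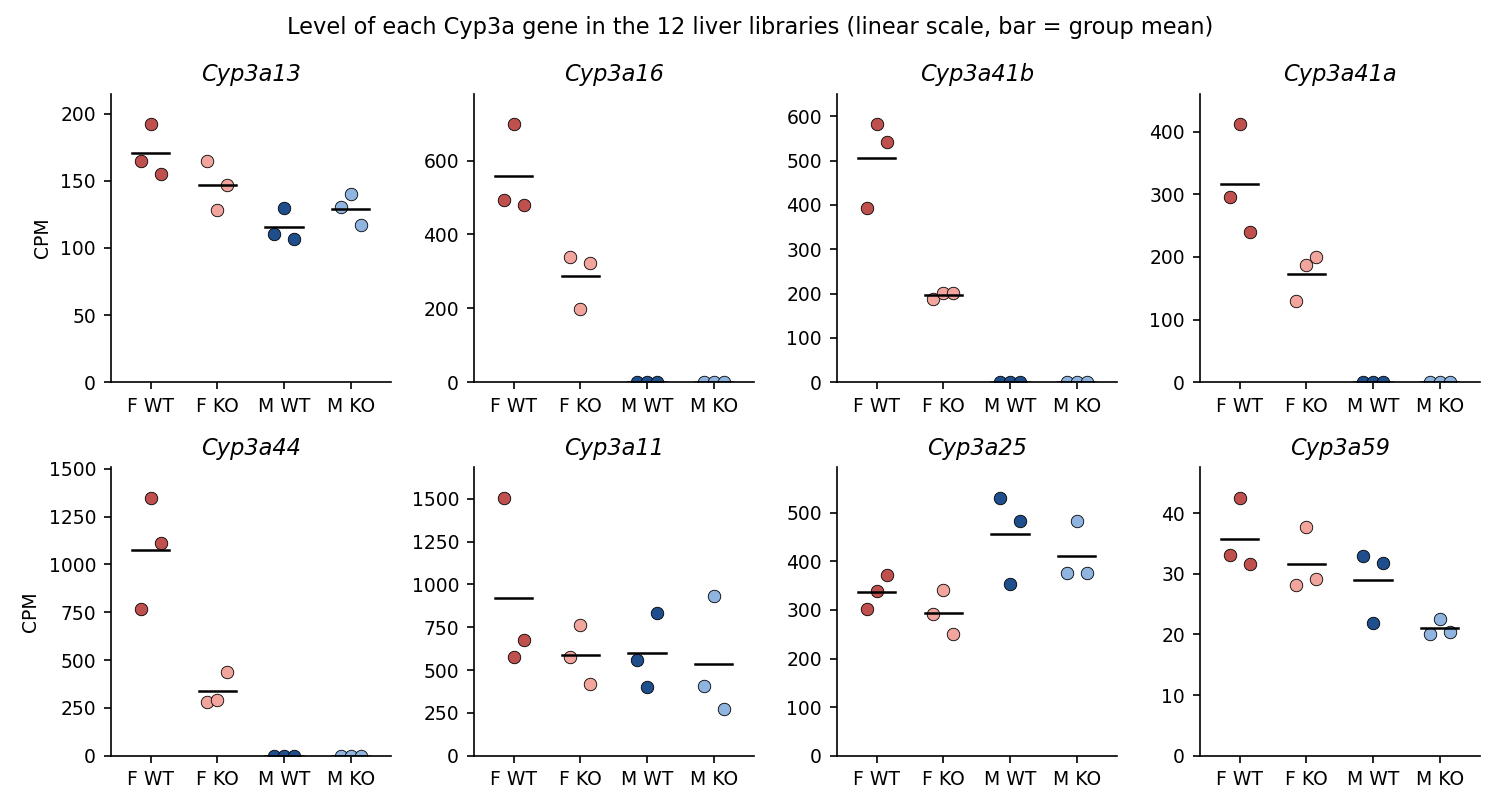
CPM of each of the 8 Cyp3a genes in each library (points; y axis on a linear scale that starts at 0 and differs between panels), for female (F) and male (M) wild type (WT) and knockout (KO) mice, with bars at the means of 3 libraries. Cyp3a16, Cyp3a41a, Cyp3a41b and Cyp3a44 lie on the zero line in all 6 male libraries, and their knockout females lie under all wild type females, while the other 4 genes are present in both sexes.

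The other 4 genes were transcribed in both sexes. Cyp3a11, the gene most often compared with human CYP3A4 and a standard reporter of PXR, had 1506, 578 and 678 CPM in wild type females and 560, 403 and 834 CPM in wild type males. The groups overlapped, and the male minus female difference on the log2 scale was -0.62 ± 0.46 (SE; edgeR adjusted p = 0.424). In the knockout it was -0.13 ± 0.46 (adjusted p = 0.882 by the same edgeR test). Its replicates were far apart, and female wild type replicate 1 had more than the other two of its group together.

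Cyp3a25, a further steroid hydroxylase, was the member with the higher male levels. It had 302, 338 and 371 CPM in wild type females against 531, 353 and 483 CPM in wild type males, a log2 difference of 0.43 ± 0.20 (edgeR adjusted p = 0.221). In the knockout all 3 males, at 376, 483 and 376 CPM, lay above all 3 females, at 292, 340 and 250 CPM, and the log2 difference was 0.49 ± 0.20 (edgeR adjusted p = 0.174). Neither passed the threshold over all genes.

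Cyp3a13, which is also made in the gut and lies apart from the others, had 165, 192 and 155 CPM in wild type females and 110, 130 and 106 CPM in wild type males. No male overlapped a female, and the log2 difference was -0.56 ± 0.17 (edgeR adjusted p = 0.0804), while DESeq2 gave -0.56 with an adjusted p of 0.0161. In the knockout the sexes overlapped, with a log2 difference of -0.18 ± 0.17 (edgeR adjusted p = 0.525). Cyp3a59, the least abundant member, had 33.1, 42.5 and 31.6 CPM in wild type females and 33.0, 21.9 and 31.9 CPM in wild type males. In the knockout its males, at 20.0, 22.6 and 20.4 CPM, were all under its females, at 28.1, 37.8 and 29.1 CPM, with a log2 difference of -0.59 ± 0.20 (edgeR adjusted p = 0.114).

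In knockout females the same 4 genes that were restricted to females had fallen, and the 4 genes transcribed in both sexes did not pass the test. Cyp3a44 had 280, 291 and 438 CPM in knockout females, all under the lowest wild type female at 764 CPM, and fell by 1.68 ± 0.33 on the log2 scale (edgeR adjusted p = 0.0139), to 31.3% of the wild type mean. Cyp3a41b had 187, 202 and 200 CPM and fell by 1.36 ± 0.20 (edgeR adjusted p = 0.0132), to 38.8% of the wild type mean. Cyp3a16 fell by 0.96 ± 0.27 (edgeR adjusted p = 0.0192), to 51.4%, and its highest knockout library, at 340 CPM, was under its lowest wild type library, at 479 CPM. Cyp3a41a had 129, 188 and 200 CPM and fell by 0.87 ± 0.26 (edgeR adjusted p = 0.0251), to 54.5%.

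These 4 of 8 members were lower and 0 were higher, where 36.5% of all genes tested were called in knockout females, 18.8% lower and 17.7% higher. The near-identical Cyp3a41a and Cyp3a41b are counted singly here and are not independent. How often the female groups of other genes separate fully is not given here, so that separation only describes these genes. The median log2 fold change was -0.76 over the 8 members and 0.05 over all genes tested. In whole liver, fewer cells that make a transcript and less transcript per cell cannot be told apart.

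The calls were lost without either of 2 libraries. Without female wild type replicate 2, or without female knockout replicate 2, no member passed, with adjusted p of 0.0554 to 0.114 in edgeR, although all 4 stayed lower at an unadjusted p under 0.05. Of all genes, 5 and 4 were then called in place of 5116. An unadjusted p under 0.05 in edgeR was then common, at 5349 of 14416 and 5433 of 14272 genes tested. Cyp3a41a was also lost without female knockout replicate 1, at an adjusted p of 0.0761.

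Gene length moved with this comparison. The slope of each library's log2 CPM on log2 gene length, relative to the mean library, was -0.249 to -0.164 in wild type females and 0.084 to 0.307 in knockout females, with no overlap. With that slope as a term of the model 0 of 8 members were called in knockout females, and 9 of all genes were called in place of 5116. The log2 fold changes then were -1.37 for Cyp3a44, -1.22 for Cyp3a41b and -1.24 for Cyp3a41a (edgeR adjusted p 0.493 to 0.651), and that of Cyp3a16 turned to 0.62 (adjusted p = 0.732). What the slope reflects was not tested, and in females it separates the libraries as the genotype does. In males the slope ran from -0.173 to 0.120 in the wild type and from -0.165 to 0.187 in the knockout, with overlap.

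Markers of other cell types are given beside the fall of the 4 genes, in a comparison where 36.5% of all genes were called, 17.7% higher and 18.8% lower. In knockout against wild type females, 4 of 10 Kupffer cell and macrophage markers were higher and 0 lower, 4 of 10 endothelial markers higher and 0 lower, 3 of 10 stellate cell markers higher and 1 lower, and 2 of 3 lymphocyte and neutrophil markers higher. Of cholangiocyte markers 1 of 5 was higher and 2 lower, of adipose, pancreas and gut markers 3 of 3 were lower, of hepatocyte markers 1 of 7 was higher, and of 5 erythroid markers none was called. Summed levels of stellate markers were 356 to 429 CPM in wild type and 462 to 531 CPM in knockout females, those of cholangiocyte markers 42.3 to 50.1 and 22.4 to 34.1 CPM, and those of the adipose, pancreas and gut markers 120 to 241 and 60.3 to 74.5 CPM, each without overlap. The Kupffer (165 to 234 and 208 to 275 CPM), endothelial (214 to 256 and 250 to 351 CPM), lymphocyte and neutrophil (6.47 to 9.39 and 9.02 to 28.1 CPM), erythroid (441 to 1042 and 235 to 597 CPM) and hepatocyte sums (82932 to 111073 and 98691 to 99261 CPM) overlapped. Ly6g was at 0 in every library. The part of these markers in the fall of the 4 Cyp3a genes was not tested.

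None of the members transcribed in both sexes passed the edgeR test in knockout females. None had an unadjusted p under 0.05 either, where 6797 of the 14003 genes tested did. Cyp3a11 had 578, 761 and 420 CPM in knockout females, which overlapped the wild type, and a log2 fold change of -0.65 ± 0.46 (edgeR adjusted p = 0.274), or -0.10 without female wild type replicate 1. Without a filter on low counts its adjusted p was 0.0446 at the same -0.65. The log2 fold changes of Cyp3a13 (-0.22 ± 0.17), Cyp3a25 (-0.20 ± 0.20) and Cyp3a59 (-0.17 ± 0.20) had adjusted p of 0.304, 0.443 and 0.507 in the edgeR test.

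**Figure D2:**
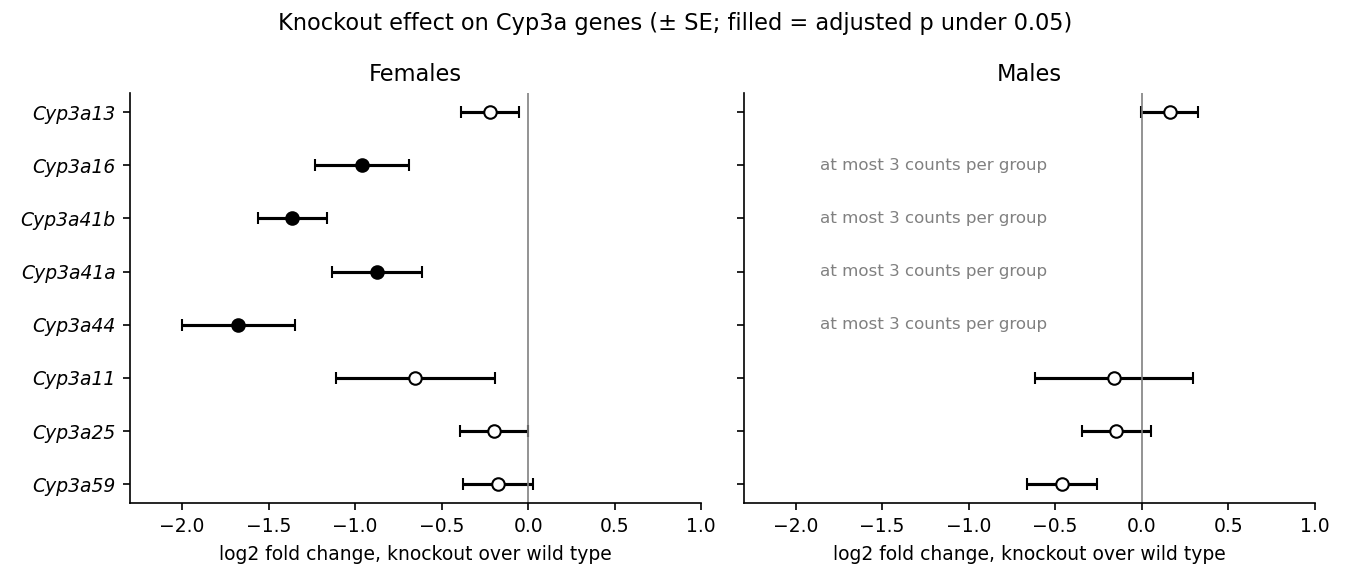
Log2 fold change of knockout over wild type (x axis) for each Cyp3a gene (y axis), in females (left) and males (right), as edgeR estimates ± SE from 3 libraries a group, with filled points where the adjusted p was under 0.05. The 4 filled points are Cyp3a16, Cyp3a41b, Cyp3a41a and Cyp3a44 in females, from -0.87 to -1.68, and these 4 genes have no estimate in males.

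In males only Cyp3a11, Cyp3a13, Cyp3a25 and Cyp3a59 had enough counts for a knockout comparison, and 0 of these 4 passed in edgeR or in DESeq2, where 0.0571% of all genes tested were called, 0.0286% higher and 0.0286% lower. At an unadjusted p under 0.05 in edgeR there was 1, Cyp3a59, where 678 of the 14003 genes tested had one. Knockout males had 20.0, 22.6 and 20.4 CPM of Cyp3a59 against 33.0, 21.9 and 31.9 CPM in wild type males. The groups overlapped, and its log2 fold change was -0.46 ± 0.20 (edgeR adjusted p = 0.987). Cyp3a11 (-0.16 ± 0.46), Cyp3a25 (-0.15 ± 0.20) and Cyp3a13 (0.16 ± 0.17) all had an adjusted p of 1 in the edgeR test.

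As the mean of both sexes, 0 of these 4 genes passed in edgeR or in DESeq2, against 15.1% of all genes tested (7.78% higher, 7.29% lower). Of the 4, 1 (Cyp3a59) had an unadjusted p under 0.05 in edgeR, where 5591 of the 14003 genes tested did. The mean log2 fold change of Cyp3a59 was -0.32 ± 0.14 (edgeR adjusted p = 0.115). It was called without male wild type replicate 2 (-0.40, adjusted p = 0.0394), and Cyp3a11 was called without male knockout replicate 2 (-0.74, adjusted p = 0.0474). The difference of the knockout effect between the sexes was called in 0 of the 4 by edgeR and by DESeq2, with 0 at an unadjusted p under 0.05, where 0.0% of all genes were called by edgeR. Among all genes 3145 had an unadjusted p under 0.05 for this difference, and DESeq2 called 268. The male minus female difference of the knockout effect was 0.49 ± 0.65 for Cyp3a11, 0.38 ± 0.23 for Cyp3a13, 0.05 ± 0.28 for Cyp3a25 and -0.29 ± 0.29 for Cyp3a59 on the log2 scale. For the 4 genes restricted to females no such test was made, since each male group held 0 to 3 counts.

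Cyp3a41a and Cyp3a41b have to be read together. Their longest coding transcripts in GENCODE M21 were 99.7% identical over 2064 aligned positions, and 82.9% of the windows of 150 bases of Cyp3a41a and 82.7% of those of Cyp3a41b also stood in the other gene. How the authors' counting treated reads that match both copies is not stated in any source used here. For the other 6 members at most 0.706% of windows of 150 bases, and at most 6.05% of windows of 100 bases, stood in another gene, so this limit touches mainly the Cyp3a41 pair.

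The sum of the pair had 689, 993 and 781 CPM in wild type females and 316, 390 and 400 CPM in knockout females. No knockout library reached a wild type one, and the sum fell by 1.16 ± 0.22 on the log2 scale (edgeR adjusted p = 0.0139), to 44.9% of the wild type mean. This call too was lost without female wild type replicate 2 (adjusted p = 0.0554 in edgeR), without female knockout replicate 2 (0.0610) and with the length slope (-1.19, adjusted p = 0.544). Per kilobase of gene length, the share of Cyp3a41a in the sum was 43.0%, 41.5% and 30.8% in wild type females and 40.9%, 48.2% and 50.0% in knockout females. The shares overlapped, so the pair gave no separate answer for each copy.

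The level of the subfamily as a whole was compared per kilobase of gene length, so that genes of different length can be added. Wild type females summed to 1686 ± 218 CPM per kb over the 8 genes (SD, n = 3) and knockout females to 837 ± 28.6. Males summed to 390 ± 76.2 without and 357 ± 102 with the knockout. Every wild type female library, from 1522 to 1934, was above every knockout female library, from 816 to 870, and these were all above the males, at most 474. Between male genotypes the sums overlapped. The sums were not tested, and the knockout calls of the genes restricted to females were lost with the length slope or without single libraries.

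The 4 genes restricted to females made up 74.6 ± 7.6% of the sum in wild type females and 61.4 ± 7.4% in knockout females, with overlap between the groups (66.3% to 81.3% and 54.6% to 69.4%). Cyp3a44 alone held 32.2 ± 5.7% in wild type and 20.4 ± 4.6% in knockout females. In males, by this gene length, Cyp3a25 held the largest part, 56.2 ± 4.5% in the wild type and 56.7 ± 7.4% in the knockout. Cyp3a11 followed with 29.6 ± 6.0% and 27.6 ± 10.1%, an order that depends on the length used. The remaining male share was that of Cyp3a13 and Cyp3a59.

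**Figure D3:**
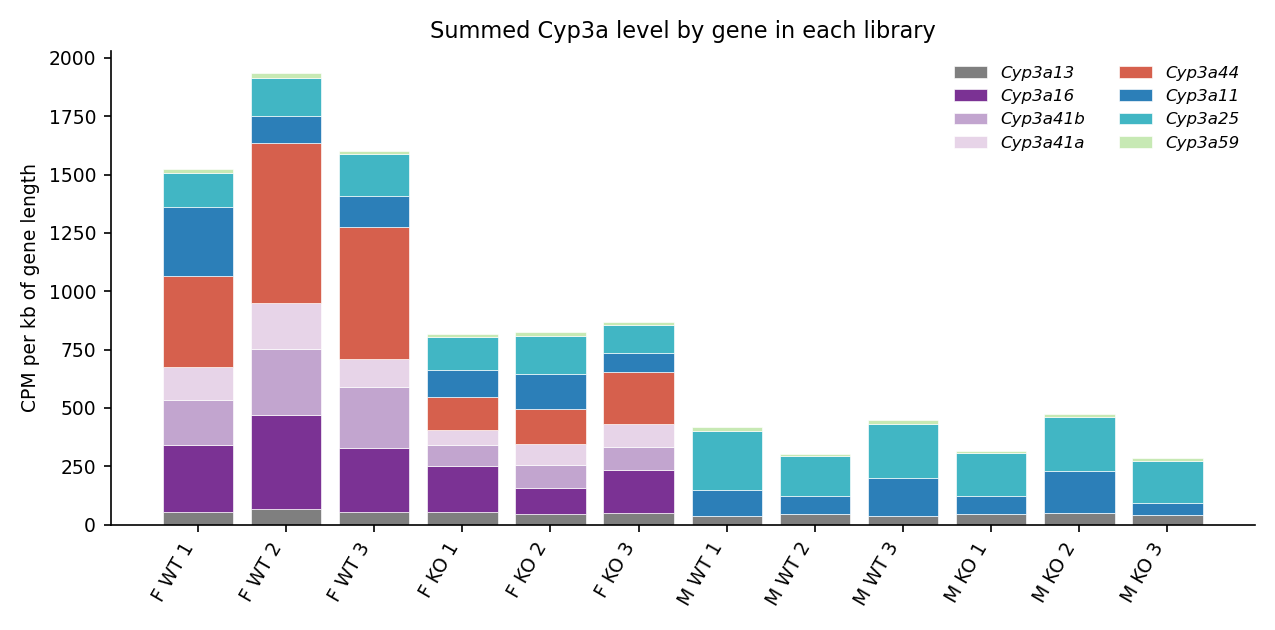
Stacked bars of the level of each Cyp3a gene in each library, in CPM per kb of gene length (y axis from 0), for females (F) and males (M) of wild type (WT) and knockout (KO), replicates 1 to 3. The wild type female bars reach 1522 to 1934, the knockout female bars 816 to 870 and the male bars at most 474, and the male bars lack Cyp3a16, Cyp3a41a, Cyp3a41b and Cyp3a44.

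In wild type females the mean levels per kb ran from Cyp3a44 (548 ± 150) through Cyp3a16 (322 ± 70.7), Cyp3a41b (245 ± 48.1), Cyp3a11 (181, with libraries from 113 to 296), Cyp3a25 (162 ± 16.7) and Cyp3a41a (153 ± 42.5) to Cyp3a13 (57.7 ± 6.5) and Cyp3a59 (17.9 ± 3.0). The first 6 overlapped each with its neighbour in this order, and Cyp3a13 and Cyp3a59 stood clear. In knockout females the first 6 lay closer together, from 171 ± 45.0 for Cyp3a44 to 83.6 ± 18.5 for Cyp3a41a, again with overlap between neighbours. In wild type males the order was Cyp3a25 (219 ± 44.2), Cyp3a11 (118 ± 42.8), Cyp3a13 (39.1 ± 4.3) and Cyp3a59 (14.4 ± 3.0), with no overlap between neighbours. Knockout males had the same order, with overlap between Cyp3a25 (198 ± 29.5) and Cyp3a11 (105 ± 68.7).

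The place of Cyp3a11 in this order depends on the length used. The table gives it 5093 bases, and its longest protein-coding transcript in GENCODE M21 has 2344 bases. With transcript lengths, an alternative chosen after seeing the data, Cyp3a11 came to 256 ± 93.0 in wild type males, above Cyp3a25 with 228 ± 46.0 and overlapping it, and led the order in knockout females with 250.1 ± 72.9. The share of the 4 genes restricted to females was then 66.3 ± 11.3% in wild type and 52.8 ± 8.7% in knockout females. In wild type males Cyp3a11 then held 46.7 ± 7.0% and Cyp3a25 42.8 ± 5.2%. In knockout males Cyp3a11 held 43.8 ± 12.3% and Cyp3a25 44.4 ± 9.4%, and the shares overlapped in both genotypes. The sums of all members were then 1905 ± 156 CPM per kb in wild type and 978 ± 27.5 in knockout females. Fold changes between groups do not use the length and stay as given.

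The genes restricted to females lie side by side. On mm39, as the table places them, 7 members form a cluster on chromosome 5, chr5:145373119-146050097, 677 kb long. Cyp3a16 (145373119 to 145406533), Cyp3a41b (145495474 to 145521540), Cyp3a41a (145630859 to 145656946) and Cyp3a44 (145710793 to 145742684) occupy its first 369.6 kb, all on the minus strand. Cyp3a11 (145791236 to 145816774) and Cyp3a25 (145914004 to 145946428) follow on the minus strand and Cyp3a59 (146016067 to 146050097) on the plus strand. Cyp3a13 (137891194 to 137919881) is on the same chromosome 7453 kb away, and Cyp2e1 is on chromosome 7.

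The stretch from Cyp3a16 to Cyp3a44 is bounded by the 4 genes restricted to females, so their male levels say nothing further about it. It holds 9 listed genes, of which 5 passed the filter, and the fifth was the unprocessed pseudogene Cyp3a63-ps. Cyp3a63-ps passed the filter through its female libraries alone. Its libraries had 21.1, 24.5 and 37.8 CPM for wild type females, 26.5, 11.1 and 14.2 CPM for knockout females and no count for any of the 6 males, at least 499.9-fold and at least 307-fold higher in females of the wild type and the knockout. Of the windows of 100 bases in the Cyp3a44 transcript 2.58% also stand in Cyp3a63-ps. The 4 untested genes in the stretch had 0 to 19 counts over all female and 0 or 1 over all male libraries.

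**Figure D4:**
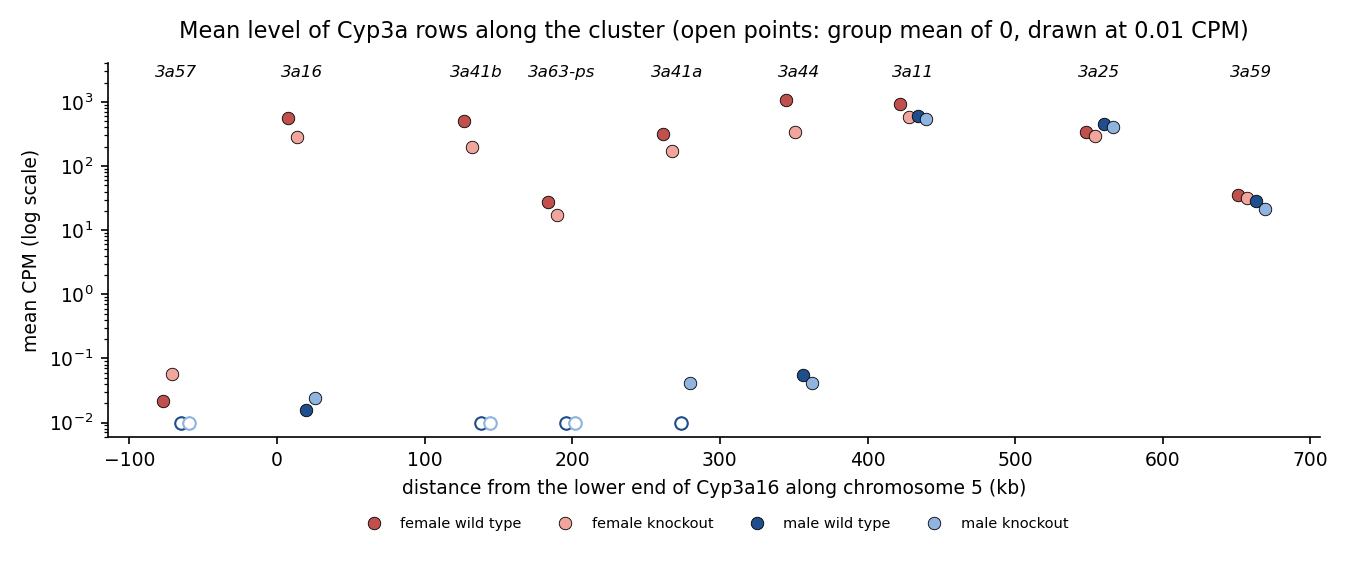
Mean CPM of each Cyp3a gene of the cluster in each of the 4 groups (y axis, log scale; open points are groups at 0, drawn at 0.01) against distance in kb from the lower end of Cyp3a16 (x axis), with the points of 1 gene set side by side. From Cyp3a16 to Cyp3a44 the female points are at 17 to 1075 CPM and the male points at or under 0.0559, and from Cyp3a11 on the 4 groups lie together.

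Cyp3a57, just before the cluster, had 5 counts in all over the 12 libraries, and the pseudogene Cyp3a61-ps1 had 2. The nearest tested protein-coding neighbours of Cyp3a13, Pilrb2 and Gjc3, were not called in any of the 6 comparisons, and in knockout females their log2 fold changes were 0.11 ± 0.42 and 0.37 ± 0.47 (edgeR adjusted p 0.846 and 0.547). The same held for Rnf6, 95.9 kb after the cluster, with 0.29 ± 0.24 (edgeR adjusted p = 0.351). Zscan25, a zinc finger gene 145 kb before the cluster, rose in knockout females by 1.02 ± 0.31 (edgeR adjusted p = 0.0255), and no longer passed with the length slope in the model (0.12).

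The genes most like each member over the 12 libraries were found by Pearson's r of log2 CPM, as a description without a test. Cyp3a16 and Cyp3a41a were most like Hao2 (r = 0.999 and 0.998), which encodes a hydroxyacid oxidase, and Cyp3a41b and Cyp3a44 most like the sulfotransferase gene Sult3a2 (r = 1.000 and 0.998). The second genes were Sult3a2 for Cyp3a16, Sult2a2 for Cyp3a41a, Sult3a1 for Cyp3a41b and Hao2 for Cyp3a44. All of these are near 0 in males, so their r mainly records the distance between the sexes. Hao2 had 174 and 112 CPM in wild type and knockout females and at most 0.173 CPM as a male group mean, and Sult3a2 had 433 and 170 CPM and 0 in both male groups.

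The members transcribed in both sexes had other partners at lower r. Cyp3a11 was most like Mpp1 (0.913) and Sytl4 (0.832), Cyp3a13 most like Tsga10 (0.923) and F2 (0.923), which encodes prothrombin, and Cyp3a25 most like Polr3f (0.923) and Rif1 (0.913). Among the genes most like Cyp3a59 was Pdk4 (0.890), a kinase of pyruvate metabolism. The 12 libraries share sex and line groups, which enter every one of these values.

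Receptors and electron partners of the Cyp3a enzymes were read from a list of 19 genes, all tested. Nr1i2, which encodes PXR, had 64.6 ± 7.98 CPM (SD, n = 3) in females of the wild type and 57.1 ± 4.04 in those of the knockout, and 48.9 ± 14.9 and 51.8 ± 9.60 in the males. Nr1i3, which encodes CAR, had 41.3 ± 7.50, 40.0 ± 10.7, 25.9 ± 0.427 and 34.9 ± 10.8 CPM in the same order, and Por 696 ± 113, 620.0 ± 111, 614 ± 293 and 638 ± 167 CPM. Their log2 fold changes in knockout females were -0.18 ± 0.22, -0.05 ± 0.24 and -0.17 ± 0.31 (edgeR adjusted p 0.526, 0.891 and 0.687). With the length slope in the model they were -0.71, 0.19 and -0.95 (edgeR adjusted p 0.398, 0.920 and 0.447). Between the sexes of the wild type, none of the 3 passed, with log2 differences of -0.40 ± 0.22, -0.67 ± 0.24 and -0.18 ± 0.31 (edgeR adjusted p 0.288, 0.136 and 0.740).

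Of the 19 genes, 3 rose and 2 fell in knockout females, against 36.5% called among all genes. Pgrmc1, a heme-binding partner of P450 enzymes, fell by 1.21 ± 0.26 (edgeR adjusted p = 0.0140), and Cyb5a, which encodes cytochrome b5, fell by 0.71 ± 0.21 (adjusted p = 0.0232 in edgeR, 0.0510 with the replicate block). Rxra, the partner receptor of PXR and CAR, rose by 1.72 ± 0.42 (edgeR adjusted p = 0.0146) and Cebpa, a hepatocyte transcription factor, by 1.01 ± 0.27 (edgeR adjusted p = 0.0160). With the length slope, without female wild type replicate 2 or without female knockout replicate 2 none of the 19 was called. With the slope Rxra turned to -0.13 and Cebpa to -0.084, and Pgrmc1 stood at -0.28 and Cyb5a at -0.050. The list's median log2 fold change was 0.21, against 0.05 over all genes. In males and between the sexes, edgeR called 0 of the 19.

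Genes outside Cyp3a that PXR and CAR are known to raise were counted over a list of 31, of which 29 were tested. In knockout females 2 rose and 11 fell, where 17.7% of all genes were called higher and 18.8% lower, with a list median of -0.56 against 0.05 over all genes. In knockout males edgeR called 0 of 29, against 0.0571% of all genes. Thrsp, a regulator of lipid synthesis, fell by 2.16 ± 0.38 (edgeR adjusted p = 0.0132), Sult1d1, a sulfotransferase, fell by 1.92 ± 0.35 (edgeR adjusted p = 0.0132), and Ces2c, a carboxylesterase, fell by 1.39 ± 0.33 (edgeR adjusted p = 0.0142). Gsta1, a glutathione transferase with close paralogs, fell by 2.63 ± 0.49 (edgeR adjusted p = 0.0139) from a low level of 0.907 ± 0.453 CPM. With the length slope 1 gene of this list was called, and without female wild type replicate 2 or without female knockout replicate 2 none. Log2 fold changes with the slope were -1.19 for Thrsp, -0.55 for Sult1d1, -1.84 for Ces2c and -2.55 for Gsta1, none of them called.

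Between the sexes this list went both ways. In the wild type 4 were higher and 6 lower in males, against 4.49% of all genes called. The sulfotransferase gene Sult2a1 stood at 242 ± 26.5 CPM in females and had no count in males. Cyp2c37, a P450 of arachidonic acid metabolism, had a male minus female log2 difference of -2.74 ± 0.26 and the uptake transporter gene Slco1a4 of -2.39 ± 0.26, and Akr1b7, an aldo-keto reductase, had 3.24 ± 0.932 CPM in females and 0.0569 ± 0.0626 CPM in males. In the knockout 8 were higher and 6 lower, against 5.4% of all genes. There Sult2a1 had 228 ± 64.1 CPM in females and 0.0360 ± 0.0623 in males, and Abcb1a, a drug efflux pump, had a log2 difference of -3.63 ± 0.43. Ces2c (log2 difference 3.08 ± 0.34) and the CAR target Cyp2b10 (5.98 ± 0.68) were higher in males. All of these had an edgeR adjusted p under 0.05, and their direction was opposite to that of the 4 Cyp3a genes for the last pair.

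Regulators of the growth hormone and sex pattern were counted over a list of 16 genes, all tested. In the wild type 4 were lower in males and 1 higher, against 4.49% of all genes called, and in the knockout 5 lower and 1 higher, against 5.4%. Cux2, which encodes a repressor known from female liver, had 27.9 ± 13.1 CPM in wild type females and 0.106 ± 0.112 CPM in wild type males. Trim24 (log2 difference -1.68 ± 0.31, edgeR adjusted p = 0.00518) and Tox (-2.21 ± 0.38, adjusted p = 0.00345) were lower in wild type males, and Bcl6, a repressor known from male liver, was higher (2.21 ± 0.41, adjusted p = 0.0061). In the knockout Cux2 (68.0 ± 7.15 CPM in females, 0.171 ± 0.104 in males), Trim24 (-2.47 ± 0.31) and Tox (-2.47 ± 0.38) were among those lower in males.

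In knockout females 5 of these 16 rose and none fell, with a list median of 0.34 against 0.05 over all genes and 36.5% of all genes called. Cux2 rose by 1.29 ± 0.33 (edgeR adjusted p = 0.0152), and Bcl6 by 1.66 ± 0.41 (adjusted p = 0.0145) from 3.81 ± 1.49 to 12.0 ± 7.26 CPM. Stat5b, which carries the growth hormone signal, rose by 1.08 ± 0.22 (edgeR adjusted p = 0.0139) and its relative Stat5a by 1.01 ± 0.26 (adjusted p = 0.0154). With the length slope, without female wild type replicate 2 or without female knockout replicate 2 none of the 16 was called. Log2 fold changes with the slope were 0.27 for Stat5b, 0.30 for Stat5a, 0.62 for Cux2 and 2.14 for Bcl6. In knockout males 0 of 16 were called by edgeR. Among these uncalled genes, Bcl6 had 17.5 ± 3.39 CPM in wild type males and 5.12 ± 0.179 CPM in knockout males. Its mean was thus lower in males than in females of the knockout, the reverse of the wild type. This is a statement of means only, as edgeR called the difference of the knockout effect between sexes in 0 of the 16.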

How the data were processed

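Whole-liver poly(A) RNA was sequenced in 12 libraries, 3 in each of 4 groups of sex and line. The authors deposited 1 table of raw read counts per gene with mm39 positions, gene length and biotype, per the file headers. HISAT2 2.0.5, DESeq2 and mm39 are named, per the submitters' processing notes, with no role stated. The counter, its strand setting and its treatment of reads matching several genes are not given in the sources used. Whether sequence differences of the 129 lines from the reference affect the counts was not tested. Columns were assigned to samples by the library number in the labels.

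Genes were kept by edgeR's filterByExpr (14003 of 56748, holding 99.9% of counts). edgeR 4.0.16 in R 4.3.3 was fitted with TMM scaling and 1 mean per group over all 12 libraries (8 residual degrees of freedom, biological coefficient of variation 25.9%). The quasi-likelihood F test was applied to 6 contrasts with Benjamini-Hochberg adjustment over all genes tested, and an adjusted p under 0.05 made a call. Standard errors were taken back from the F statistic and are approximate. The Cyp3a41 sum was tested in the whole table with both rows replaced by their sum. CPM uses the TMM-scaled library size. A group at 0 was given a floor of 3 counts over its libraries. Overlap between groups is stated as a description, without a share over all genes.

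On simulated counts of the female knockout comparison, over 14003 genes, 23 of 100 genes changed 2-fold and 88 of 100 changed 4-fold were recovered. There 8 unchanged genes were called. Only 200 genes were changed in the simulation, where 5116 were called in the data, so these rates need not hold for the data. Alternatives were DESeq2 1.42.0, RLE scaling, other filters, only the groups compared, a replicate block, a length slope, and leaving out each library. Replicates of a group differed beyond counting noise (14.9 to 136 for chi-square over its degrees of freedom).

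The members, the 3 pathway lists and the 8 marker lists were chosen with earlier results of these data known. Genes named are all members, Cyp2e1, other Cyp3a rows, up to 4 called genes of smallest adjusted p per pathway list, Nr1i2, Nr1i3 and Por, the nearest tested protein-coding neighbours, and the 2 most alike genes per member. A gene that this rule takes is not reported here, and it stays in all fits and counts.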

Additional observations from a re-analysis of the deposited data

How the results depend on the processing

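Sex calls of Cyp3a16, Cyp3a41a, Cyp3a41b and Cyp3a44 kept direction and threshold under every alternative run. These genes are near 0 in males, so this stability only describes them. Without any 1 library, 4 members stayed called in each sex comparison. DESeq2 called 5 in the wild type (Cyp3a13 added). With the length slope 5 were called in the knockout (Cyp3a59 added, -0.68, edgeR adjusted p = 0.0497). In knockout females the count of members called was 4 with DESeq2, RLE scaling, the stricter filter, only the groups compared and the replicate block, 5 without a filter, and 0 with the length slope. Leaving out 1 library gave 0 to 4 in females and 0 to 1 for the mean of both sexes. The Cyp3a41 sum was -1.19 with the length slope (adjusted p = 0.544) and -1.27 to -0.999 without 1 library, with an adjusted p up to 0.0610.

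The replicate numbers did not pair the libraries: 3 of 18 same-number pairs had a correlation of deviations over 0.1 (-0.61 to 0.28), and 1 of 12 libraries correlated best with its own number. With the replicate block all genes called in knockout females went from 5116 to 3365 and as the mean of both sexes from 2111 to 23, and no member's call changed.

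With the length slope these fold changes turned in knockout females: Cyp3a11 0.44, Cyp3a16 0.62, Cyp3a25 0.15, Cyp3a59 0.042, Nr1i3 0.19, Rxra -0.13, Cebpa -0.084 and Rnf6 -0.59. As the mean of both sexes Cyp3a11 turned to 0.18, Cyp3a13 to 0.053 and Cyp3a25 to 0.028, and the difference between sexes turned to -0.53 for Cyp3a11 and -0.24 for Cyp3a25. Other uncalled values changed sign without 1 library. Cyp3a11 ran from -0.83 to 0.16 in males, from -0.17 to 0.81 for the difference between sexes and from -0.79 to 0.19 between the sexes of the knockout. Cyp3a13 ran from -0.075 to 0.016 as the mean of both sexes and Cyp3a25 from -0.10 to 0.21 for the difference between sexes. Nr1i3 ran from -0.29 to 0.10, Pilrb2 from -0.019 to 0.22 and Gjc3 from -0.13 to 0.61 in knockout females, and Por from -0.61 to 0.068 between the sexes of the wild type. The cause was not tested.

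Over all genes the calls in the difference between sexes were 0 with edgeR, 268 with DESeq2, 1451 without a filter and 3 with the length slope, and in knockout males 8 with edgeR, 27 with DESeq2, 101 without a filter, 15 with the length slope and 1 with only the groups compared. Calls between the sexes went from 629 to 1126 with DESeq2 and 1700 without a filter in the wild type, and from 756 to 1332 and 1694 in the knockout, and as the mean of both sexes from 2111 to 3817 and 3900, with 22 under the length slope; the replicate block left 415 in the wild type sex comparison. Without 1 library, all genes called ran from 4 to 5993 in knockout females, 5 to 18 in knockout males, 18 to 5594 for the mean of both sexes, 0 to 2 for the difference, and 379 to 1124 and 440 to 953 between the sexes of the wild type and the knockout. Depth limits the 4 genes restricted to females in males, where 0 to 3 counts a group allow no knockout comparison.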
